A study of Drosophila melanogaster with 4 samples.

Results

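The regions described here are the H3K79me1-enriched regions of intermediate width on 3 autosomal arms of Drosophila melanogaster, 2L, 3L and 3R. They were taken from the authors' list for the combined replicates as every enriched region there that was at least 5000 bp and under 10000 bp wide. There were 909 of them, out of 8216 enriched regions on the same arms and 12942 in the whole combined list. They were chosen by their measured width in the combined list, so widths, scores and coverage by the lists behind the combined list are given as a description, without tests. The working description of these regions as gene-sized could not be checked, because gene models of the files' genome release were not used here, and for the same reason no gene is assigned to a region and the head origin was not checked against marker genes.

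H3K79me1 was mapped by ChIP-seq, the sequencing of DNA recovered with an antibody against a chromatin mark, on head nuclei of adult flies. All 4 libraries came from wild-type flies of the strain Oregon-R, labelled Mixed Adult, with no other allele or agent, and heads were separated from whole animals with sieves. The 2 ChIP libraries, made with lot 1 of an Abcam antibody against H3K79me1, each have 1 region list, and the 2 input libraries enter only through the authors' calls. Heads hold neurons, glia, photoreceptors, muscle, fat and cuticle cells, so a region reports a mixture of cell types. Whether each replicate had its own collection of flies is not stated in the labels, and the spread between replicates may be technical.

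H3K79me1 is the addition of a single methyl group to a lysine on the globular core of histone H3, away from the flexible tail that carries most of the studied marks. The enzymes of the Dot1 family that place it have no SET domain and can add further methyl groups to the same residue. In flies the enzyme is encoded by grappa, known for effects on the silencing of reporter genes and on the maintenance of homeotic gene patterns. The mark is generally found over the bodies of transcribed genes.

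The 909 regions made up 11.1% of the enriched regions on the 3 arms by number and 22.6% by length, 6.21 Mb in all. They covered 8.23% of the arms. Arm 2L carried 246 of them, or 10.7 per Mb. Arm 3L carried 315, or 12.8 per Mb, and arm 3R carried 348, or 12.5 per Mb. The arms 3L and 3R were thus similar in density and 2L was lower. The regions were not spread evenly over the width range. The lowest step, from 5 to 6 kb, held 313, followed by 240, 151, 129 and 76 in the successive steps of 1000 bp. The median width was 6585 bp (quartiles 5663 and 7817).

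The authors' score for a region comes without a stated unit. It was taken as a log2 value with an unknown constant. The score therefore ranks regions within a list and gives no absolute enrichment. Within the combined list the 909 regions had a median log2 score of 0.57 (quartiles 0.50 and 0.67, lowest 0.36, highest 1.12). The median over all enriched regions on the 3 arms was 0.44, and 92.6% of the 909 lay above it. Median log2 scores rose from each width class to the next, so a high score was not particular to these regions. They were 0.40 under 2 kb, 0.47 from 2 to 5 kb, 0.63 from 10 to 20 kb and 0.73 from 20 kb upward. Width and score were only loosely tied inside the class, with a Spearman's rho of 0.180 over 909 regions called from the same reads. Medians were 0.56 on 2L, 0.56 on 3L and 0.59 on 3R.

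The limits of the class cut through a continuous range of widths. The 3 narrowest regions inside it were 5001, 5005 and 5009 bp wide, with log2 scores of 0.58, 0.53 and 0.67. The 3 nearest below it were 4991, 4993 and 4999 bp wide, with log2 scores of 0.58, 0.83 and 0.40. At the upper limit, regions of 9965, 9981 and 9993 bp with log2 scores of 0.47, 0.60 and 0.58 lay inside, and regions of 10003, 10005 and 10019 bp with log2 scores of 0.43, 0.51 and 0.51 lay outside.

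The 3 highest-scoring regions of each arm were single, uninterrupted blocks in both replicates. This did not hold for all high scores. In the highest of 4 equal classes by score, 148 of 227 regions (65.2%) had exactly 1 region in each replicate, against 53 of 228 (23.2%) in the lowest. On 3R, the top region ran from 11312074 to 11319186 (7113 bp, log2 score 1.12 in the combined list). Replicate 1 gave 1 region from 11312377 to 11319110 (log2 score 1.22) and replicate 2 gave 1 region from 11311909 to 11318933 (log2 score 1.10). The edge positions in replicate 2 minus those in replicate 1 were -468 bp on the left and -177 bp on the right. On 2L, the region from 12056352 to 12063256 (log2 score 1.08) was matched by 12056485 to 12063156 in replicate 1 and 12056713 to 12063107 in replicate 2. On 3L, the region from 5139502 to 5145862 (log2 score 1.07) was matched by 5139979 to 5145757 in replicate 1 and 5139682 to 5145781 in replicate 2. In each of these cases all 3 lists placed both edges within 500 bp of each other. The remaining top regions of the arms, from 6854044 to 6861506 and from 12722480 to 12731972 on 2L, from 19536058 to 19544620 and from 17345884 to 17351284 on 3L, and from 17397590 to 17405964 and from 7247496 to 7256822 on 3R, also had exactly 1 region in each replicate. Replicate 1 covered at least 82.4% of each of these 9 regions and replicate 2 at least 91.8%.

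The 3 lowest-scoring regions of each arm were covered only in part by the replicates. The lowest of all, on 3R from 7683048 to 7688434 (log2 score 0.36), held no replicate 1 region and only 1514 bp of replicate 2, from 7684744 to 7686257. On 3R from 15290644 to 15296538 (log2 score 0.38), replicate 1 gave 3 regions covering 75.1% and replicate 2 gave 1 region covering 23.2%. On 3L from 13040162 to 13045460 (log2 score 0.40), replicate 1 marked the left side, from 13040229 to 13042178, and replicate 2 the right side, from 13044111 to 13045476, with no base in common. In such regions the interval of the combined list was not drawn by either replicate alone. The other low-scoring regions lay on 2L from 134630 to 142718, from 18383854 to 18391568 and from 19264320 to 19270494, on 3L from 14404062 to 14410640 and from 3821104 to 3826382, and on 3R from 4940246 to 4945760. None of these 9 regions was covered above 75.1% in replicate 1 or above 41.0% in replicate 2.

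**Figure D1:**
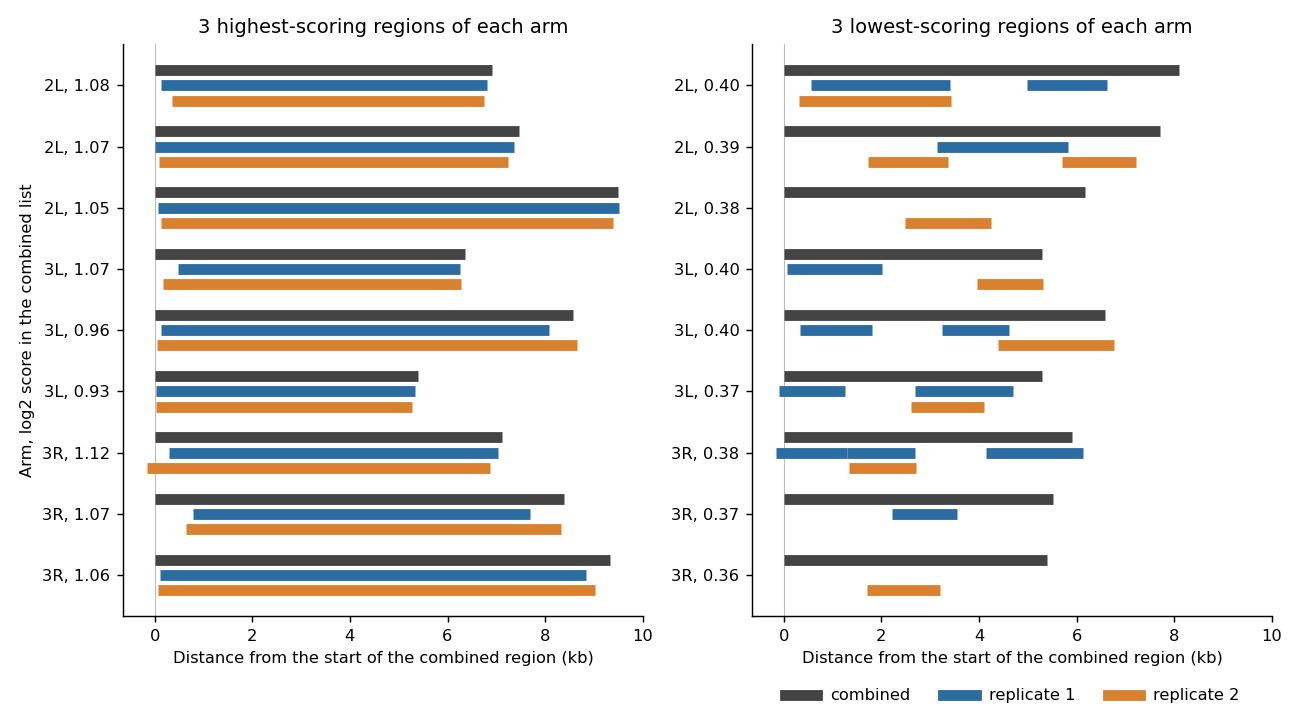
Bars show the extent of the combined region (grey), replicate 1 regions (blue) and replicate 2 regions (orange) against distance in kb from the start of the combined region, for the 3 highest-scoring and 3 lowest-scoring of the 909 regions on each arm, labelled with arm and log2 score. On the left, 1 region per replicate fills most of each combined region, and on the right the replicate regions are short, split or missing.

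Nearly every region of 5 to 10 kb had some counterpart in both replicate lists. A base of each replicate list lay in 863 of 909 (94.9%, 95% Wilson interval 93.3 to 96.2), against 34.3% of all enriched regions on the 3 arms. These intervals take each region as independent and hold only the error of counting. Wider regions offer more bases to overlap, so the share is not a measure of how well they replicate. In the class below, from 2 to 5 kb, it was 1500 of 2926 (51.3%), and from 10 to 20 kb it was 283 of 283. Of the other 46 regions of 5 to 10 kb, 22 had bases in replicate 1 only, 23 in replicate 2 only, and 1, on 2L from 10022456 to 10027872 (log2 score 0.42), in neither. The 45 regions in a single replicate list were low in score, with a median of 0.44 and a highest value of 0.60. In the list that held them, their median covered share was 54.8%, with a range from 23.9% to 95.8%.

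Coverage was incomplete in most regions. The median covered share was 68.6% in replicate 1 (quartiles 49.0% and 84.3%) and 72.0% in replicate 2 (54.4% and 87.3%), a mean of 70.3% ± 2.45 (SD, n = 2). At least 50% was covered in each replicate for 570 regions (62.7%, background 25.3%). At least 90% was covered in each replicate for 58 (6.38%, background 2.35%). Coverage this high in both replicates was uncommon in the highest of 4 score classes too, at 50 of 227 regions (22.0%). Mean shares on the arms were 67.0% ± 0.241 on 2L, 65.2% ± 2.24 on 3L and 67.2% ± 3.91 on 3R (SD, n = 2), and these differences between arms were no larger than the spread between replicates on 3L and 3R. For regions of 2 to 5 kb the mean covered share was 49.7% ± 5.20, and for those of 10 to 20 kb it was 73.2% ± 1.91 (SD, n = 2).

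Counted by base, 3.10 Mb of the 6.21 Mb (49.9%) lay in both replicate lists, 15.4% in replicate 1 only and 18.9% in replicate 2 only. A further 0.984 Mb (15.8%) lay in neither, so the combined list added sequence that no replicate list held. Of the 909 regions, 34 lay entirely within the union of the replicate lists. The median region had 51.5% of its bases in both lists and 11.2% in neither. None of these base counts is set beside that of all enriched regions on the arms, so they only describe the class.

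The bases that the replicates left out were mostly at the ends. Of the uncovered bases, 77.9% in replicate 1 and 77.8% in replicate 2 lay between a combined edge and the outermost replicate edge. Another 15.2% and 15.5% lay in internal gaps between replicate regions, and the remainder in regions without any counterpart. Coverage along the relative width was a broad plateau with shoulders. In the outermost 5% on each side it averaged 28.7% in replicate 1 and 31.1% in replicate 2, and in the 2 middle bins of 5% it averaged 73.7% and 79.4%. Bins at the same distance from either edge were averaged for these values. Bases in neither list made up 48.7% of the outermost bins and 8.77% of the middle ones.

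**Figure D2:**
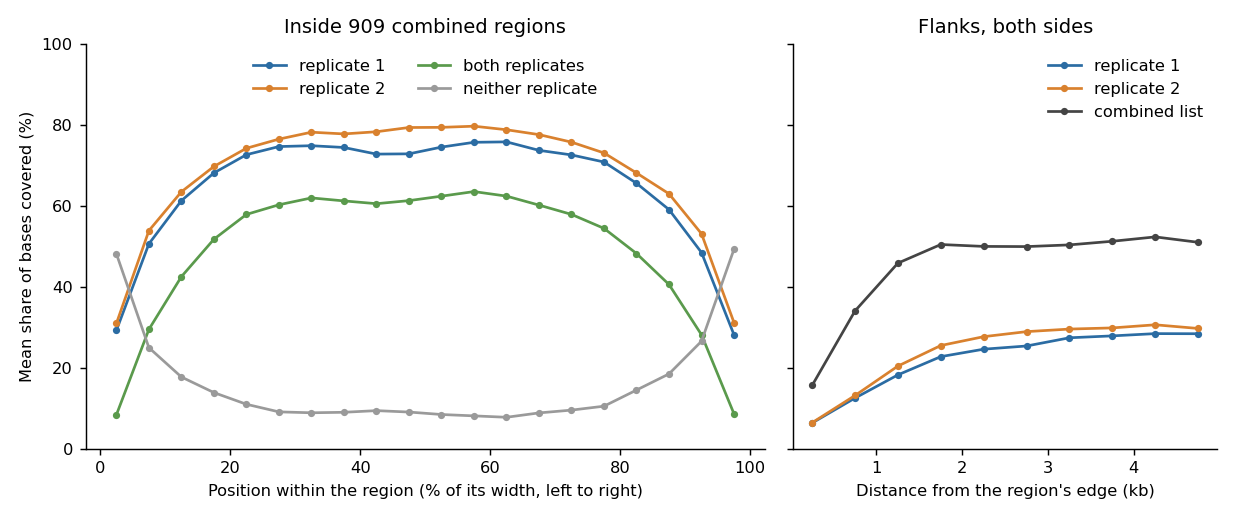
Left, the mean share of bases covered (y axis, percent) in 20 equal bins along the 909 regions, for each replicate list, for both and for neither. Right, the same for each replicate and for other regions of the combined list in steps of 500 bp outside the region, both sides averaged. Coverage rises from about 30% at the edges to a plateau above 70% inside, and outside it is lowest next to the edge, at 6.38% and 6.45% in the replicates.

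Next to the regions, marked sequence was scarcer than along the arms as a whole, and further out it was more frequent. A region of the combined list ends at its edge, and the replicate lists come from the same reads. Low values next to an edge were therefore partly fixed in advance, and flanks of other regions are not given for comparison. Over the 3 arms the combined list covered 36.5% of bases, replicate 1 19.0% and replicate 2 20.8%. In the first 500 bp beyond an edge, other regions of the combined list covered 15.6% of bases and the replicates 6.38% and 6.45%. From 1500 to 2000 bp onward the combined list covered close to 50% (50.5% in that step and 51.0% from 4500 to 5000 bp), while the replicates reached 28.4% and 29.7% in the last step.

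Scores in the combined list went together with coverage in the replicates. Split into 4 equal classes by score, the regions had median covered shares in replicate 1 of 44.1%, 56.7%, 76.5% and 86.6% from the lowest class to the highest. In replicate 2 the medians were 42.1%, 65.9%, 78.1% and 89.1%. Spearman's rho between score and covered share was 0.669 for replicate 1 and 0.691 for replicate 2 over 909 regions. The combined score and both lists come from the same reads, so these values describe the lists and do not test one against the other. The shares with a base in both lists were 82.0%, 98.2%, 99.6% and 100% in the 4 classes, and 50 of the 58 regions covered to at least 90% in each replicate were in the highest.

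The relation between the replicates' covered shares differed between the class as a whole and its score classes. Over all 909 regions, Spearman's rho between the covered shares in replicates 1 and 2 was 0.392. Within the score classes it was -0.136, -0.143, -0.0722 and 0.111, from lowest to highest (228 regions in the lowest class and 227 in each of the others). The score that formed the classes came from both replicates and was itself related to both covered shares, so the values inside a class are no measure of how alike the replicates ranked the regions.

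**Figure D3:**
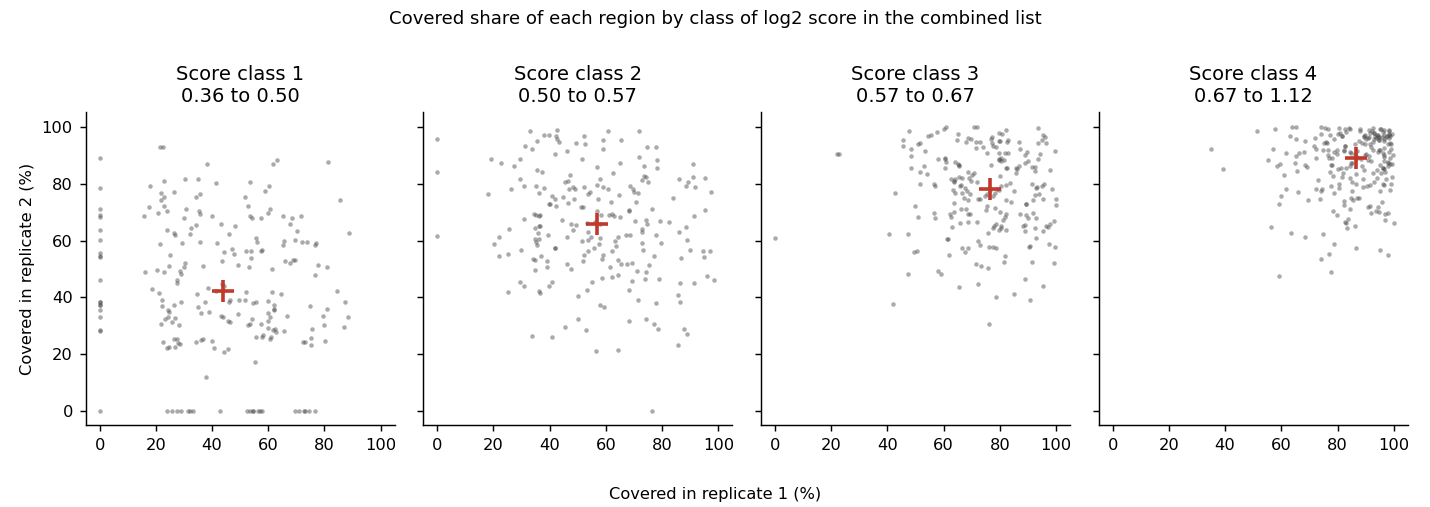
Each point is 1 of the 909 regions, placed by the percentage of its bases covered in replicate 1 (x axis) and replicate 2 (y axis), in 4 equal classes of log2 score in the combined list, and the cross marks the medians. The cloud moves from medians of 44.1% and 42.1% to 86.6% and 89.1% from the lowest score class to the highest.

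A region of 5 to 10 kb in the combined list was often several regions in a replicate. Replicate 1 had no region on 24, exactly 1 on 542, 2 on 299, 3 on 43 and 4 on 1. Replicate 2 had no region on 23, exactly 1 on 530, 2 on 309, 3 on 45 and 4 on 2. The counts over the whole class were thus nearly equal between the replicates, but within single regions they often differed. In 445 regions the replicates differed in number, 375 were split in exactly 1 replicate and 162 were split in both. Such counts are not given for all enriched regions or for other widths, so they only describe the class.

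Exactly 1 region in each replicate was found in 348 of 909 (38.3%, interval 35.2 to 41.5), against 22.1% of all enriched regions on the arms. In the neighbouring classes it was 46.2% from 2 to 5 kb and 9.89% from 10 to 20 kb, and 2.19% under 2 kb, so these regions lay below the next narrower class. Inside the class the share fell with width, from 53.7% of those of 5 to 6 kb to 9.21% of those in the widest step of 1000 bp. Wider intervals have room for more replicate regions, and the cause of the fall was not tested. Regions with 1 counterpart in each had a median width of 6074 bp and a median log2 score of 0.64. Those split in both replicates had a median width of 7978 bp and a median log2 score of 0.55. The 3 widest regions, all on 3L, were split in at least 1 replicate. The region from 7256974 to 7266966 was 3 regions in replicate 1 and 1 in replicate 2, that from 2456272 to 2466252 was 1 and 3, and that from 672122 to 682086 was 3 and 3.

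Internal gaps of one replicate were mostly filled in the other. The gaps had a median of 589 bp in replicate 1 (385 gaps in 341 regions) and 459.5 bp in replicate 2 (404 gaps in 355 regions). Of the bases in replicate 1 gaps, 67.5% were covered in replicate 2, against 70.1% of the bases on either side of the gaps in the same regions. Of the bases in replicate 2 gaps, 61.4% were covered in replicate 1, against 65.6% beside them. A gap in one replicate was therefore covered in the other almost as often as the marked sequence of the same regions. That sequence reached nearer the ends, where coverage was lower, so the shares are not matched for position.

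Most of the regions had no counterpart of this width in either replicate list. A replicate region that was itself 5 to 10 kb wide lay on 239 of the 909 in replicate 1 (26.3%) and on 254 in replicate 2 (27.9%), with 129 in both replicates and 545 in neither. The class was chosen by width in the combined list alone. Matches of width are not given for other width classes, so these counts do not set the class apart. Replicate regions on the 909 had median widths of 2546.5 bp (n = 1266) and 2835 bp (n = 1288). Conversely, the replicate lists held 437 and 480 regions of this width on the 3 arms. Of these, 235 (53.8%) and 254 (52.9%) lay mostly in one of the 909, and 200 (45.8%) and 223 (46.5%) lay mostly in a wider region of the combined list. Replicate regions of this width were thus divided between the class and wider regions of the combined list.

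The edges of the combined regions mostly lay outside those of the replicates, at distances that varied widely. The outermost replicate edge was inside the combined edge by a median of 465.5 bp in replicate 1 (quartiles 110.25 and 1425.5) and 390 bp in replicate 2 (95 and 1336). Within 200 bp of the combined edge lay 31.9% of replicate 1 edges and 34.9% of replicate 2 edges, and within 500 bp 50.5% and 54.6%. Only 11.6% and 10.3% of edges lay outside the combined region. Left and right edges behaved alike, with medians of 449 and 488 bp in replicate 1 and 381 and 398.5 bp in replicate 2. All 4 edges, left and right in both replicates, were within 500 bp of the combined edges in 91 regions (10.0%, interval 8.22 to 12.1), against 7.56% of all enriched regions on the arms, a background to which the class was close. It was 14.4% for regions of 2 to 5 kb.

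Between the replicates themselves, edges often differed by more than 500 bp. Over the 348 regions with 1 counterpart in each, the absolute distance between the replicates' edges had a median of 540 bp on the left and 550.5 bp on the right, and 541 bp over both. Of the 696 edges, 26.7% were within 200 bp, 47.7% within 500 bp and 66.8% within 1000 bp. The signed medians, replicate 2 minus replicate 1, were -28 bp on the left and 36.5 bp on the right, so neither replicate was shifted along the chromosome. The replicate 2 region was the wider one in 195 of 348 (56.0%, interval 50.8 to 61.2), with median widths of 4587 bp in replicate 1 and 4668.5 bp in replicate 2.

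**Figure D4:**
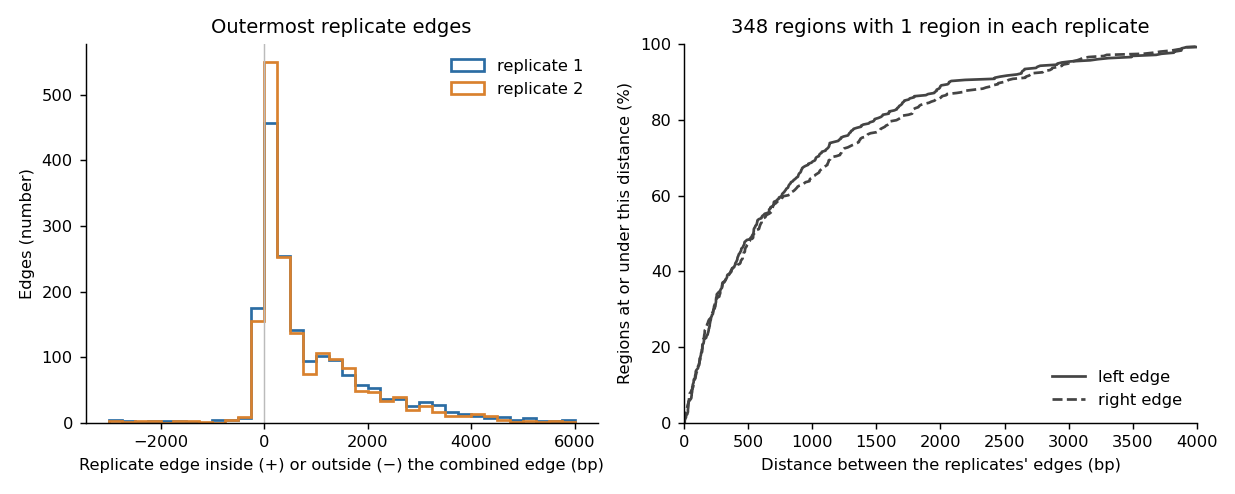
Left, the number of outermost replicate edges (y axis) by their distance in bp inside (positive) or outside (negative) the combined edge, with the few values beyond the axis placed in the end bins. Right, the percentage of the 348 regions with 1 region in each replicate whose edges differed by no more than the distance on the x axis. The counts peak next to the combined edge and tail off inward, with medians of 465.5 and 390 bp inside, and the replicates' own edges differ by a median of 541 bp.

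The most closely matched regions had nearly the same ends in both replicates. On 3R, the region from 27406420 to 27414220 (log2 score 0.93) began at 27406493 and ended at 27414163 in replicate 1. In replicate 2 it began at 27406462 and ended at 27414168, differences of -31 and 5 bp. On 3R from 20579518 to 20586140, the replicate regions were both 6512 bp wide and offset by 38 bp. On 3L from 17345884 to 17351284 the differences were 8 and -56 bp. On 2L from 8355574 to 8362492 they were -57 and -19 bp, and on 3L from 2593524 to 2599626 they were -45 and 36 bp. These 5 included regions of moderate score, such as that of 0.65 on 3L, and in the 2L region both replicates stopped short of the combined right edge, covering 73.9% and 74.5%.

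At the other extreme, the replicates marked separate parts of a region. In 25 regions (2.90% of the 863 with bases in both lists) the replicate lists had no base in common, and 19 of these had exactly 1 region in each. The same share over all enriched regions on the arms is not given, so the count only describes the class. Their combined log2 scores were low, with a median of 0.46 and a highest value of 0.50. All 5 regions with the largest summed edge difference were on 3L and were of this kind. In the region from 10837240 to 10845148, replicate 1 marked 10842299 to 10844078 and replicate 2 marked 10837493 to 10839422. In that from 14683072 to 14690884, replicate 1 marked 14684683 to 14686879 and replicate 2 marked 14688367 to 14690732. The others started at 3610086, 7052976 and 13040162. For these intervals the 3 lists together do not fix where the mark lay.

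Scores ranked the regions with 1 counterpart in each replicate in a similar order in the 2 replicate lists. Spearman's rho between the replicate scores was 0.670 over 348 regions, and between the replicate widths 0.618. With the combined score, rho was 0.853 for replicate 1 and 0.851 for replicate 2. These regions stood high in their own lists, at a median percentile of 76.9 among all replicate 1 scores and 74.1 among all replicate 2 scores. The values carry no p-value, as neighbouring regions and lists share libraries. In the combined list the 909 regions had a median percentile of 80.4, and 260 (28.6%) were in its top 10%.

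Close neighbours were common among these regions, as among all enriched regions of the arms. The gap to the nearest enriched region had a median of 655 bp (quartiles 203 and 1647), against 809 bp (271 and 2100) over all 8216 regions. Counting the gaps on both sides, the medians were 1472 bp and 1861 bp. A neighbour lay within 500 bp of 395 regions (43.5%, background 37.6%) and within 1000 bp of 568 (62.5%, background 56%). On both sides there was one within 1000 bp for 186 (20.5%, background 14.6%). These shares were near those of the whole list. None lay within 5000 bp of 55 regions (6.05%, background 8.45%), and 11 had none within 10000 bp, for which no background is given. One of these 11 was the high-scoring region on 3R from 17397590 to 17405964, with free stretches of 44073 bp on its left and 40411 bp on its right. The 2 regions of the class before it on 3R, from 17307704 to 17313096 (log2 score 0.95) and from 17347774 to 17353516 (log2 score 0.86), were also among the 11. Neighbours were mostly narrower, with a median width of 2363 bp, and 41.4% of them were under 2000 bp.

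Some neighbouring regions were separated by very little. Of 127 pairs in which both regions belonged to the class, the closest lay on 2L, from 15256544 to 15264354 and from 15264356 to 15269622, and on 3R, from 1014096 to 1019980 and from 1019982 to 1025128, each 1 bp apart. The next were 3 bp apart on 3R, at 11484366 and 11484370, then 5 bp apart at 3394690 and 3394696 and 7 bp apart at 18874060 and 18874068, both on 3L. On 2L the paired log2 scores were 0.73 and 0.63, and on 3R 0.64 and 0.38. Replicate 1 crossed the gap with 1 region in 7 of the 127 pairs and replicate 2 in 3. In the 3R pair at 1 bp, replicate 1 covered the left region completely and 27.6% of the right one, while replicate 2 covered 72.4% of the left and none of the right.

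The width of a region thus depended on how such small gaps were treated. When regions less than 1000 bp apart were joined, 341 of the 909 were left as they were, 464 (51.0%) stayed between 5 and 10 kb, and 445 (49.0%) became part of a region of 10 kb or more. The median width of the regions holding the 909 rose from 6585 to 9781 bp, and the widest reached 120.4 kb.

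Along the arms the regions were found throughout. Every one of 74 full windows of 1 Mb held some, with a median of 12 and a range from 3 to 25. The 2 richest windows, with 25 each, were from 16000001 to 17000000 on 3L and from 10000001 to 11000000 on 3R. The poorest, with 3, was on 3R from 2000001 to 3000000, near the centromere. The number in a window and the number of all enriched regions in it had a Spearman's rho of 0.392 over 74 windows, which are not independent and in which the 909 are part of the total.

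In 10 equal bins counted from the telomere, the number of regions over the 3 arms was 109 in the telomeric bin, 116 in the fourth bin and 71 in the centromeric bin. The centromeric bin held 7.81% of the regions (interval 6.24 to 9.74), against 6.99% of all enriched regions on the arms, so the class followed the list as a whole. In the replicate lists, regions of this width were in that bin for 8.47% and 8.54%. On 2L the lowest of the bins was the second from the telomere, at 7.39 per Mb. On 3L it was the centromeric one, at 8.56 per Mb. On 3R it was again the second from the telomere, at 8.96 per Mb, so the low point differed between arms. How much of each bin can take aligned reads was not analysed.

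**Figure D5:**
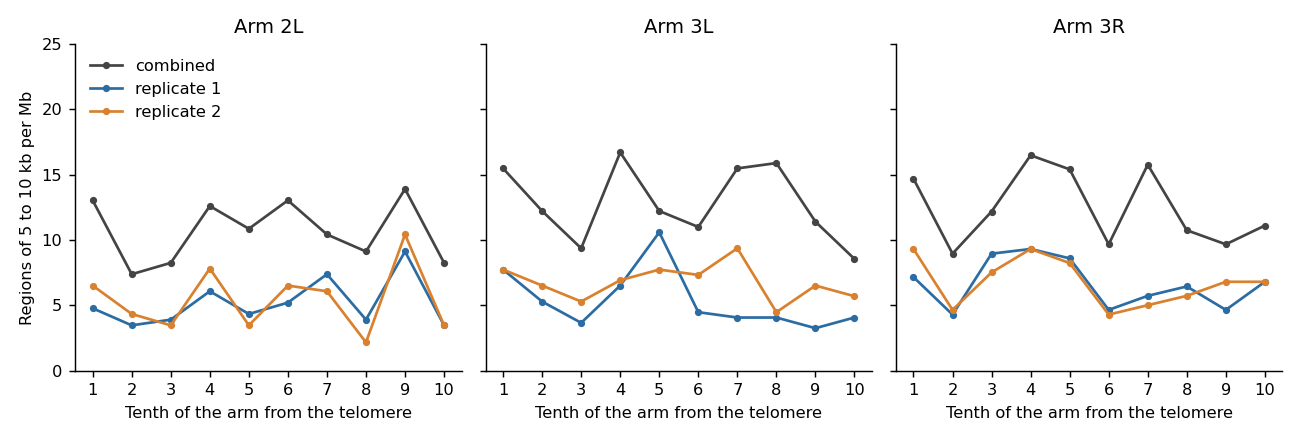
Number of regions of 5 to 10 kb per Mb (y axis) in 10 equal bins of each arm, from the telomere (1) to the centromere (10), in the combined list and in each replicate list by its own widths. The combined list lies above both replicate lists in every bin, and no arm shows a steady trend from end to end.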

How the data were processed

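The sources describe 2 ChIP and 2 input libraries. The submitters' processing notes name Bowtie 0.12.7 as a tool, and per the file headers positions refer to FlyBase release 5. The authors deposited 1 region list per ChIP replicate and 1 for the combined replicates, with a value per region treated as log2. On that scale, score differences gave ratios of whole numbers (denominators up to 5000, relative tolerance 1e-11) in 96.9% to 99.9% of regions, against 0.518% to 1.18% on natural log and log10 scales. Not given in the sources used here are the region caller, its threshold and how the replicates were merged. Library depth is unknown.

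From the lists, 1 region named as depleted was left out and joined header lines were split. Coordinates are 1-based. A covered share is the bases of a region inside a replicate list over its width, and any overlap of 1 bp counted. Work was done in Python 3.11.15 with numpy 2.4.6, pandas 2.3.3, scipy 1.17.1 and matplotlib 3.10.9, and overlap code was tested on simulated lists. The regions, classes and comparisons were chosen with earlier results of these data known. Regions named were the 3 highest-scoring and 3 lowest-scoring of each arm, those nearest the width limits, the 5 at each extreme of coverage and of edge distance, and the 5 closest pairs. Those at the extremes of coverage are named where they illustrate a result, and the isolated 3R regions and the windows were picked after their values were seen.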

Additional observations from a re-analysis of the deposited data

How the results depend on the processing

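Of 29 alternatives, 13 stayed within 1.5 times the count or within the spread or interval of the value given. The number of regions, 909, became 596 with a lower limit of 6000 bp and 437 to 480 when a single replicate list was used. The share with a base in both lists, 94.9%, became 62.7% and 6.38% when 50% or 90% coverage was required, 99.8% among the higher-scoring 50% of the regions, 54.9% with the higher-scoring 50% of each replicate list and 96.8% on 3L alone. The median covered share, 70.3%, was 68.6% to 72.0% for single replicates and 73.1% after joining replicate regions less than 1000 bp apart, which also raised the regions with 1 counterpart in each from 348 to 652. The median edge distance, 541 bp, became 652 bp over the outermost edges of all 863 regions in both lists, 396 bp for reciprocal overlaps of at least 50%, and 294 bp in the highest score class, an alternative chosen after seeing the data. Spearman's rho of the replicate scores, 0.670, became 0.538 for the highest-scoring replicate region on each of the 863 and 0.745 on 2L alone. The median gap to the nearest region, 655 bp, became 2189 bp after joining, by construction. The centromeric share, 7.81%, was 8.47% to 8.54% in single lists. For the other changes the cause was not tested, beyond what each setting alters by construction. No paired analysis was possible because these results come from no test and only the ChIP libraries have region lists. Genes on the regions were not analysed, for want of gene models of release 5. Without known depths, the lengths of the lists cannot be compared between replicates.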

Other observations

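All 12942 regions of the combined list start and end at even coordinates, whereas 25.1% of replicate 1 regions and 24.9% of replicate 2 regions do. The narrowest region was 1001 bp in the combined list and 1301 bp in both replicate lists. The lists thus differ in more than the reads behind them, and edge distances between the combined list and a replicate list include this difference. How much of them it makes up was not tested.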
